A study of Mus musculus with 6 samples.

Results

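The genes described here are the matrix metalloproteases (MMPs), the ADAM and ADAMTS metalloproteases, the ADAMTS-like proteins and the tissue inhibitors of metalloproteases (TIMPs). They were chosen by gene symbol from the platform annotation, without use of their values, and 82 of the 22180 genes measured with a probe set of their own matched: 22 MMPs, 33 ADAMs, 18 ADAMTS, 5 ADAMTS-like genes and 4 TIMPs. A further ADAM gene, Adam34, shared its probe sets with another gene and was left out, and Mmp15 and Adamts2 were not analysed here. RNA came from the tibialis anterior, a fast-twitch muscle of the lower leg, of male C57Bl/6 mice at 18 weeks of age and was hybridised to Affymetrix whole-transcript arrays. The question of the series is how castration, which removes the main source of circulating androgen, alters gene expression in muscle. The control group is 3 samples from mice given a sham operation at 11 weeks, whose diet label reads fasted, and the other group is 3 samples from mice castrated at 11 weeks, whose diet label reads refed. The shared sample protocol describes an overnight fast, a 30 min meal and a further 4 h without food, while the series design describes mice that either stayed fasted or had that meal. Surgery and diet label divide the samples in the same way, so their effects cannot be told apart, and each difference below is castrated and refed minus sham and fasted. The labels name a mouse for each sample but do not state that every sample is a separate animal, so the tests measure the spread between these samples.

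MMPs, ADAMs and ADAMTS proteins are zinc-dependent proteases. MMPs cut collagens, basement membrane and other matrix proteins, ADAMs cut membrane proteins to release their outer domains, and ADAMTS proteases act on proteoglycans and procollagens outside the cell. TIMPs bind in the active site and block these enzymes. In muscle, fibroblasts, vessel cells, immune cells and the fibres themselves supply different members of the system, which takes part in matrix turnover and in growth and repair of fibres.

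Array medians lay between 5.04 and 5.10 on the log2 scale, and correlations across all genes were 0.9904 to 0.9924 for arrays of the same group, against 0.9895 to 0.9916 for arrays of different groups. The labelled tissue was checked against 12 skeletal muscle fibre markers, among them Ckm, Acta1 and Myh4. All 12 were measured, none was dim by the mark described below, and their levels summed on the linear scale (2 to the power of the log2 value) spanned 96500 to 106100 in the sham group, against 97290 to 101600 in the castrated group.

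None of the 82 genes passed the test over all genes (limma, Benjamini-Hochberg adjusted p under 0.05), for which the share over all genes was 0.0135%, or 3 of 22180. The smallest limma adjusted p among them was 0.406, for Timp4. At an unadjusted limma p under 0.05 there were 12, or 14.6%, beside 7.13% of all genes. Of these, 6 had higher means in castrated samples, beside 3.62% of all genes, and 6 had lower means, beside 3.51%. Without castrated sample 3 the count was 7. It was also 7 when genes under the 50th percentile of level were left out. That filter removes genes of the set too, among them Timp1, Adamts20 and Adamts17. Its count is thus out of fewer than 82 genes and cannot be set directly against 12. The values of the groups did not overlap for 18 of the 82, or 22.0%, beside 12.8% of all genes, with castrated samples above sham for 10, beside 5.73% of all genes, and below for 8, beside 7.02%. The system had no common direction: 45 genes had a positive and 37 a negative difference, and the median log2 difference was 0.025, beside −0.0056 over all genes. In size the differences were small. Only Timp4 and Adamts9 differed by more than 0.5 on the log2 scale.

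**Figure D1:**
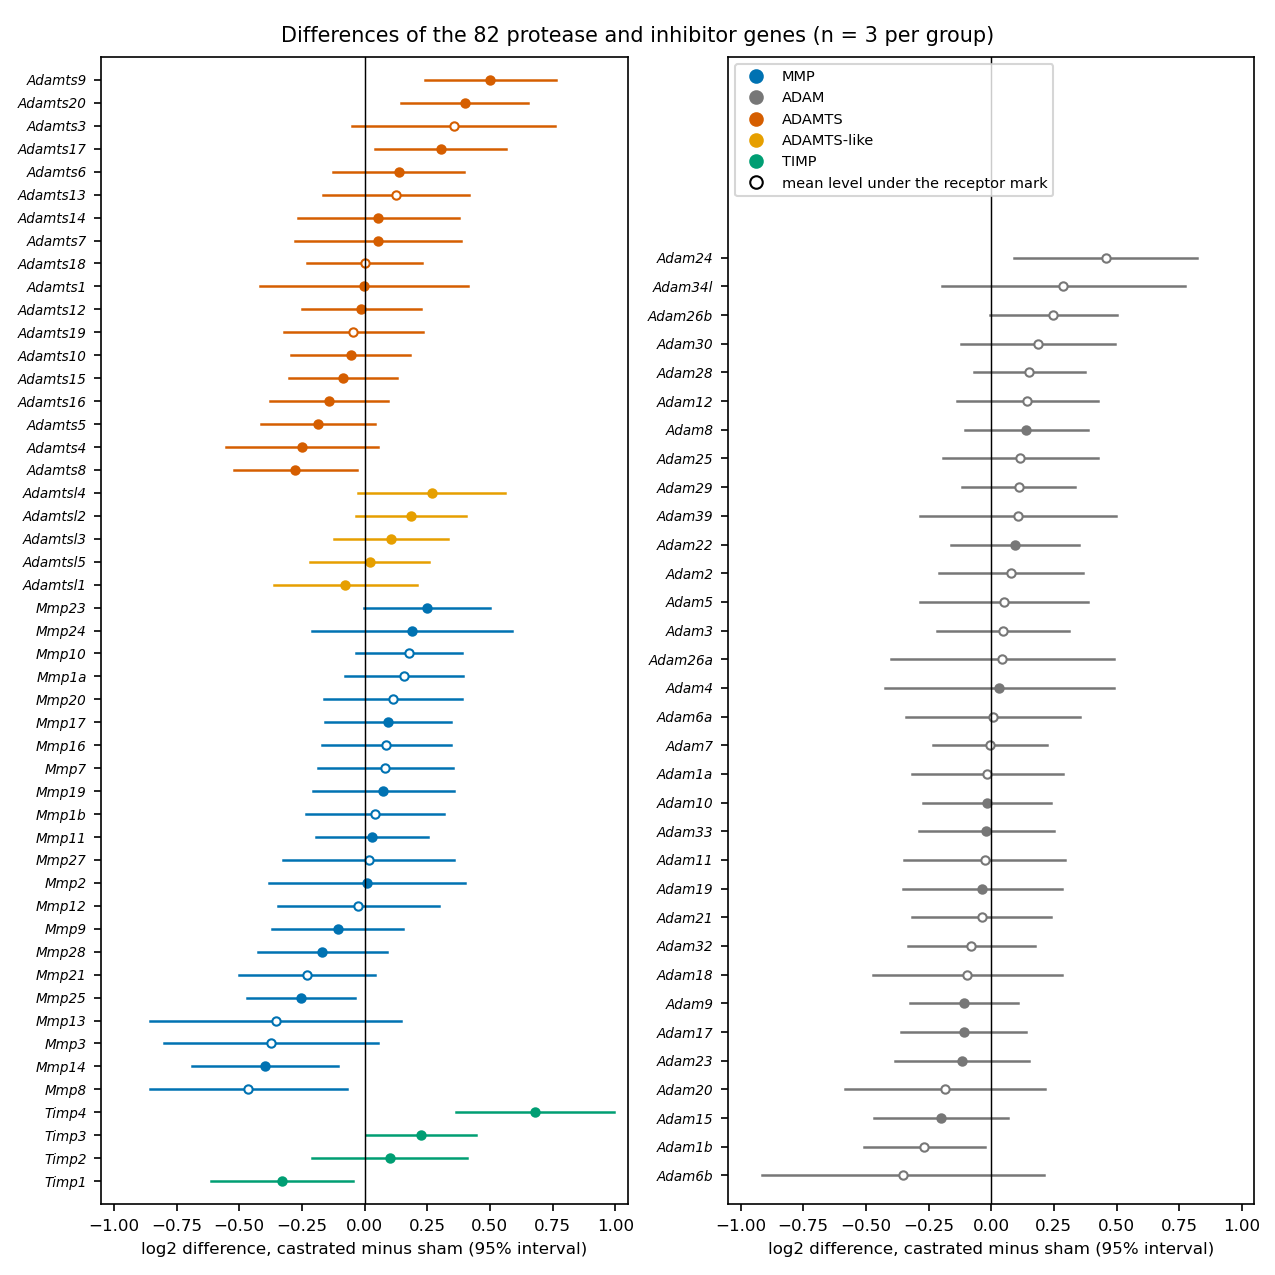
Log2 difference (castrated minus sham, x axis) of each of the 82 genes, coloured by family, with points for the estimate and lines for the 95% interval from limma; open points mark genes whose mean level lies under that of most olfactory and vomeronasal receptor genes. The 12 genes at an unadjusted p under 0.05 have intervals that leave out 0, with Timp4 and Adamts9 furthest to the right and Mmp8 and Mmp14 furthest to the left.

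Signal strength sets how much these values can carry. Olfactory and vomeronasal receptor genes, most of which muscle is not known to use, served as a rough mark of dim signal: 95% of 1394 such genes had a mean under 4.94. By this mark 39 of the 82 genes were dim, among them 23 of 33 ADAMs and 12 of 22 MMPs, and none of the TIMPs. Probe sets differ in how brightly they bind, so the mark is not a test of expression. Among the 43 genes above the mark 9 had an unadjusted p under 0.05, or 20.9%, beside 6.56% of all genes above it, and among the 39 below it 3 did, or 7.69%, beside 8.01% of all genes below it.

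**Figure D2:**
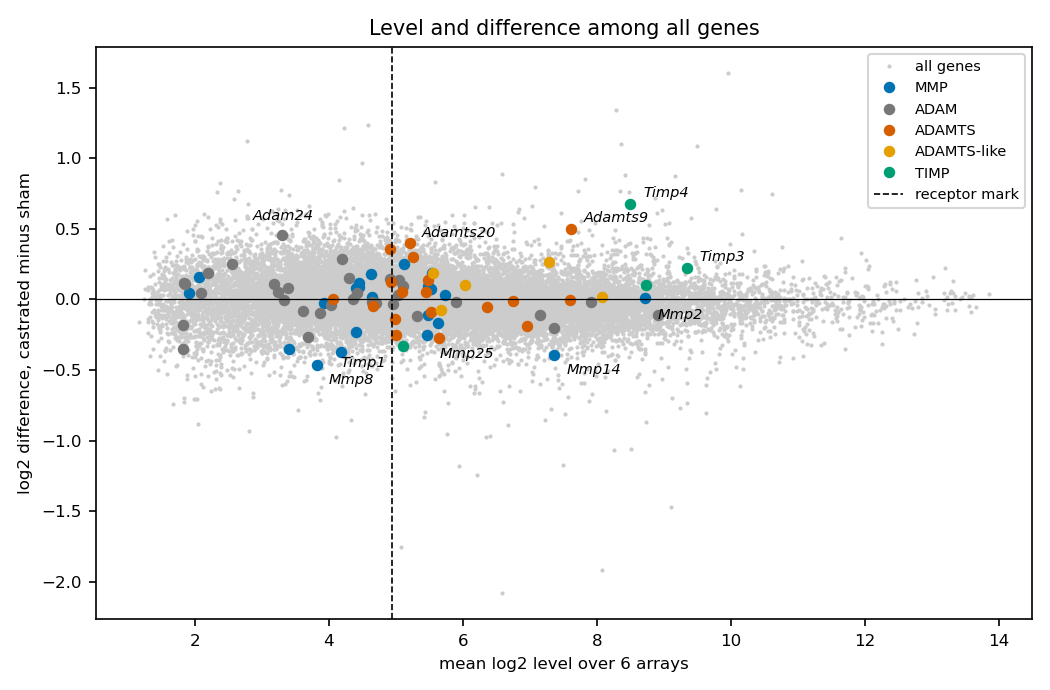
Log2 difference (castrated minus sham, y axis) against mean log2 level over the 6 arrays (x axis) for all genes in grey and the 82 genes by family; the dashed line is the receptor mark at 4.94. Timp4, Adamts9, Timp3 and Mmp14 lie to the right of the line, and Mmp8 and Adam24 to its left.

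The inhibitors differed from each other in direction. Timp4, an inhibitor with a narrow distribution that heart, muscle and fat express, had log2 levels of 8.21, 7.91 and 8.36 in sham samples 1, 2 and 3 and of 9.01, 8.82 and 8.69 in castrated samples 1, 2 and 3. All castrated values lay above all sham values. The means were 8.16 ± 0.23 and 8.84 ± 0.16 (SD, n = 3 each), a 1.60-fold difference (log2 difference 0.68, standard error 0.14, 95% interval 0.36 to 0.99, limma adjusted p = 0.406). Syn2, the synapsin gene within whose span Timp4 lies in the RefSeq gene table of assembly GRCm38.p6, differed by 0.03 (standard error 0.11). Syn2, like the synapsin genes that hold Timp1 and Timp3, was looked at after the values of the inhibitors were known.

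Timp3, which binds to the matrix and also inhibits ADAM17 and several ADAMTS proteases, stood at 9.16, 9.29 and 9.26 in sham samples 1, 2 and 3. In castrated samples 1, 2 and 3 it stood at 9.41, 9.55 and 9.42, so the groups did not overlap. The difference was 0.23 (standard error 0.097, 95% interval 0.0042 to 0.45, limma adjusted p = 0.696). Timp2, which both inhibits MMP2 and takes part in its activation at the cell surface, had 8.95, 8.67 and 8.45 in sham and 8.84, 8.85 and 8.68 in castrated samples. Here the groups overlapped, and the difference of 0.10 had a 95% interval from −0.21 to 0.41 (limma adjusted p = 0.911). Without sham sample 3 the Timp2 difference was −0.020, so its direction rests on that sample.

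Timp1, the inducible and secreted inhibitor, ran the other way. Its levels were 5.45, 5.03 and 5.31 in sham and 5.01, 4.93 and 4.86 in castrated samples. All castrated values lay below all sham values, although castrated sample 1 and sham sample 2 were only narrowly apart. The difference was −0.33 (standard error 0.13, 95% interval −0.61 to −0.047, limma adjusted p = 0.682). The hosts of Timp1 and Timp3, Syn1 and Syn3, differed by 0.07 and 0.14 (limma adjusted p = 0.912 and 0.840). Of the 4 TIMPs, then, 3 had a positive and 1 a negative difference, and the median difference was 0.16. At an unadjusted p under 0.05 there were 3 of the 4, beside 7.13% of all genes, a count from very few genes.

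**Figure D3:**
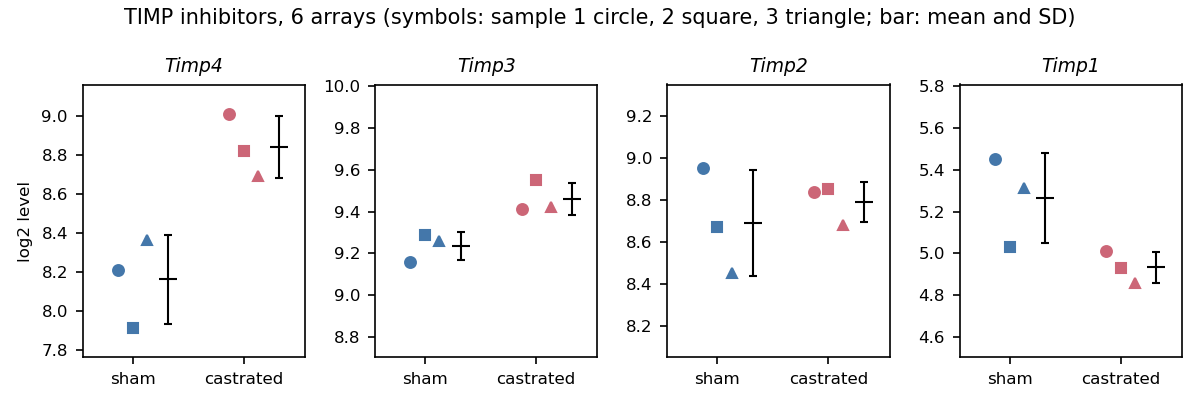
Log2 levels (y axis) of the 4 TIMP genes in each sham (blue) and castrated (red) sample, with the mean and SD of each group as a black bar (n = 3). Castrated samples lie above all sham samples for Timp4 and Timp3 and below them for Timp1, while Timp2 overlaps.

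Fat cell markers had higher summed levels in the same samples as Timp4, which fat also expresses. Of 8 adipocyte markers 7 were measured, and 6 had a positive difference, with a median of 0.27. Their summed linear level spanned 1952 to 2407 in the sham group and 2573 to 2739 in the castrated group, without overlap. Lep, which encodes leptin, was dim by the receptor mark, and Fabp4 also marks endothelium. The part of fat cells in the Timp4 values was not tested. In whole muscle, more cells of a type and more RNA per cell cannot be told apart.

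The bases before the starts of 4 genes above the receptor mark are shown to let their promoters be compared: Timp4 and Adamts9, which had the largest positive differences, Mmp14, which had the most negative one among genes above the mark, and Timp1, the inhibitor that differed in the opposite direction to Timp4. Of the 82 genes 51 had a start window in the RefSeq promoter table (GRCm38.p6), some with several, for 56 windows. Each sequence holds the 250 bases before the start, 5′ to 3′ on the gene's strand. Capitals mark matches, on either strand, to the GC box GGGCGG, the myogenic E-box CAGCTG, the AP-1 site TGANTCA, the androgen receptor half-site AGAACA or the TATA box TATAAA, motifs that were chosen after values and sequences had been seen.
Timp4, chr6:115252206-115252455, minus strand: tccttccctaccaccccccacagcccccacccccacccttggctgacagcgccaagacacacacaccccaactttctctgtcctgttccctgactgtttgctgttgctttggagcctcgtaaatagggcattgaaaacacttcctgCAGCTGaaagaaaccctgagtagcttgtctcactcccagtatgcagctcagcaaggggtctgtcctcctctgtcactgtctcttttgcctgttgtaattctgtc
Adamts9, chr6:92943535-92943784, minus strand: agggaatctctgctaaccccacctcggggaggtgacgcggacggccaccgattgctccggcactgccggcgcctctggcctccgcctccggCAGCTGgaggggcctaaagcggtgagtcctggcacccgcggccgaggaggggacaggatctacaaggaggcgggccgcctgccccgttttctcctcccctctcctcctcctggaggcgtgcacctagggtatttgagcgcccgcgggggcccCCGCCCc
Mmp14, chr14:54431348-54431597, plus strand: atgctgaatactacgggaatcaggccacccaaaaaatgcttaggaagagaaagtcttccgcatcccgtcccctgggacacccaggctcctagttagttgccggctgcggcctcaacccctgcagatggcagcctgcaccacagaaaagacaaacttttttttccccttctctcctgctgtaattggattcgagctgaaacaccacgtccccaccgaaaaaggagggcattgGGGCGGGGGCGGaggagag
Timp1, chrX:20869916-20870165, plus strand: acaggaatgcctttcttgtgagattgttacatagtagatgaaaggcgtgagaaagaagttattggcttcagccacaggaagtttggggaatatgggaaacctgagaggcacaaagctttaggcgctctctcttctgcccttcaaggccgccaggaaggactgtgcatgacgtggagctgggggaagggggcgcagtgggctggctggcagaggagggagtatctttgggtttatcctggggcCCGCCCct
Timp4 and Adamts9 each hold 1 CAGCTG, and Mmp14 and Timp1 hold 0. Among all genes with a window and an unadjusted p under 0.05, CAGCTG was not confined to 1 direction. Of the 5 with a higher mean in castrated samples, Timp4 and Adamts9 included, 3 held it, Timp3 and Adamts20 being without it. Of the 5 with a lower mean, Mmp14 and Timp1 included, 1 held it, Mmp25. These genes are too few to tell whether its presence follows direction. GGGCGG occurs in Adamts9 and Timp1 once each and in Mmp14 in 2 copies end to end. None of the 4 windows holds the AP-1 site, the androgen receptor half-site or the TATA box in these letters. CAGCTG was present in 10 of the 56 windows, or 17.9%, beside 13.0% of all 32851 windows in the table, and GGGCGG in 22, or 39.3%, beside 32.7%. The androgen receptor half-site was present in 9, or 16.1%, beside 16.1% of all windows. A match to such short letters is not a binding site.

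Of the 22 MMPs 3, or 13.6%, were at an unadjusted p under 0.05, beside 7.13% of all genes. All 3 had lower means in castrated samples, beside 3.51% of all genes, and 2 of these, Mmp14 and Mmp25, are membrane-type enzymes. Mmp14, which encodes MT1-MMP, a collagenase fixed in the cell membrane that also activates MMP2, had log2 levels of 7.77, 7.60 and 7.32 in sham and 7.11, 7.12 and 7.27 in castrated samples. All castrated values lay below all sham values, with castrated sample 3 and sham sample 3 closest. The difference was −0.40, or 1.32-fold (standard error 0.13, 95% interval −0.69 to −0.10, limma adjusted p = 0.658). Mmp25, which encodes a membrane-anchored MMP known from neutrophils, had 5.58, 5.62 and 5.57 in sham and 5.38, 5.39 and 5.24 in castrated samples. These groups too were apart, and the difference was −0.25 (standard error 0.095, limma adjusted p = 0.671). The other 3 measured membrane-type genes, Mmp16, Mmp17 and Mmp24, had positive differences of 0.09, 0.09 and 0.19 at unadjusted p of 0.461, 0.424 and 0.307.

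The gelatinases, which cut basement membrane collagen and denatured collagen, gave no difference beyond their spread. Mmp2, the gelatinase made by fibroblasts, had 9.10, 8.68 and 8.35 in sham but 8.78, 8.70 and 8.69 in castrated samples. The castrated values were close together and lay inside the sham range. The difference was 0.010 with a 95% interval from −0.38 to 0.40, and it ran from −0.17 without sham sample 3 to 0.21 without sham sample 1. In Timp2 and Mmp14, which act with Mmp2, sham sample 1 was likewise highest and sham sample 3 lowest of the sham samples. That order was not particular to these genes, since Mmp9 and Col1a1 had it too. After subtraction of each gene's mean over the 6 arrays, the median of 21 matrix substrate genes was 0.16 in sham sample 1, −0.13 in sham sample 2 and −0.22 in sham sample 3. The median of 11 fibroblast markers was 0.24, −0.14 and −0.019 in the same order, so sham sample 2 was lowest there. In castrated samples 1, 2 and 3 the matrix substrate medians were 0.15, 0.031 and −0.056. The fibroblast medians were 0.10, 0.019 and −0.23, a spread that the close castrated values of Mmp2 did not share. The part of matrix-producing cells in these values was not tested. Mmp9, the gelatinase of neutrophils and macrophages, had 5.74, 5.49 and 5.38 in sham and 5.45, 5.39 and 5.44 in castrated samples. These overlapped, and the difference of −0.11 had a 95% interval from −0.37 to 0.15.

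The interstitial collagenases were all dim. Mmp8, the neutrophil collagenase, had 3.85, 4.25 and 4.03 in sham and 3.26, 3.91 and 3.58 in castrated samples. The groups overlapped, since castrated sample 2 lay above sham sample 1. The difference was −0.46 (standard error 0.17, limma adjusted p = 0.671), and without castrated sample 1 it was −0.30. Mmp13, the main collagenase of rodent cartilage and bone, differed by −0.35, but sham sample 3 alone stood at 4.17 where the other 5 samples lay between 3.10 and 3.35. Mmp1a and Mmp1b differed by 0.16 and 0.043. Of the stromelysins and matrilysin, Mmp3 differed by −0.37, Mmp10 by 0.18, Mmp7 by 0.082 and Mmp11 by 0.029, with overlap between groups in all but Mmp10. A second, slightly dimmer probe set of Mmp11 differed by −0.26, so its probe sets disagreed in direction. The probe sets of Mmp7 disagreed too, the second and dimmer one differing by −0.090. Of the 7 other MMPs 4 had a positive difference and 3 a negative one, from −0.23 for Mmp21 to 0.25 for Mmp23. These collagenases, stromelysins and other MMPs, apart from Mmp8, are named for completeness and not by p.

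Neutrophil markers had lower summed levels in castrated samples, the group in which the means of Mmp8 and Mmp25 were lower. Of 10 markers 7 had a negative difference, with a median of −0.083, and their summed linear level spanned 301 to 336.8 in the sham group and 240.6 to 295.1 in the castrated group, without overlap. Retnlg differed by −0.86 and S100a8 by −0.41, neither past the threshold (limma adjusted p = 0.596 and 0.671), and these are the 2 markers of smallest p. Lcn2 differed by −0.48 and Ly6g by 0.40, with overlap between groups in both (limma adjusted p = 0.755 and 0.766). The markers S100a8, S100a9, Ly6g, Cxcr2, Retnlg, Camp and Ngp were dim by the receptor mark. The part of neutrophils in the Mmp8 and Mmp25 values was not tested. Macrophage markers overlapped between groups in summed level, at 1081 to 1835 in the sham group and 1001 to 1465 in the castrated group, with 11 of 12 differences negative.

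**Figure D4:**
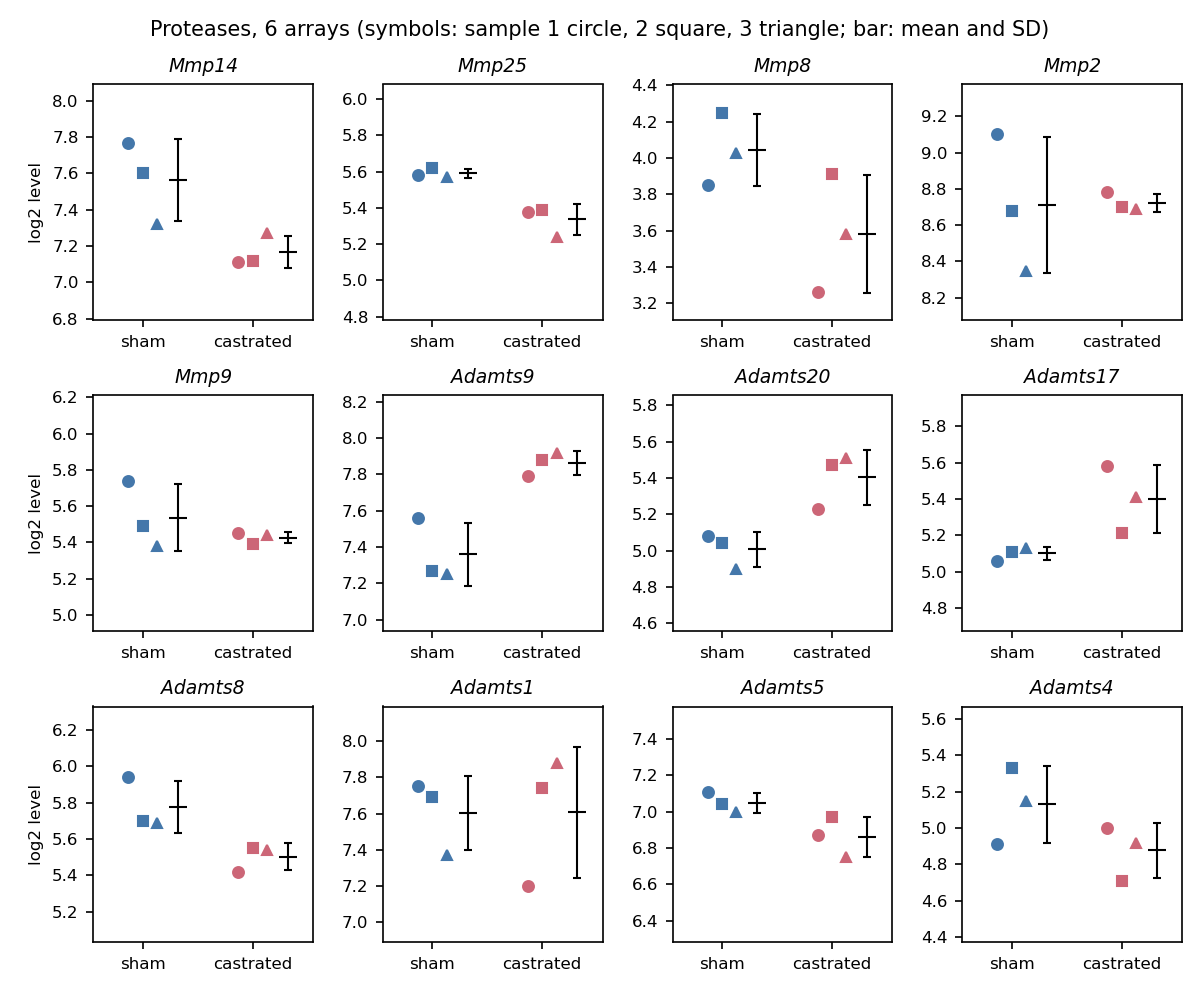
Log2 levels (y axis, each spanning its own range) of 5 MMP and 7 ADAMTS genes in each sham (blue) and castrated (red) sample, with the mean and SD of each group as a black bar (n = 3). Castrated samples lie above sham samples for Adamts9, Adamts20 and Adamts17 and below them for Mmp14, Mmp25, Adamts8 and Adamts5; Mmp2 shows a wide sham spread around a narrow castrated group.

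Of the MMP genes, 10 lie side by side on chromosome 9 in the RefSeq table, with no other protein-coding gene between Mmp13 and Mmp7. All 10 were dim, and 6 had a positive and 4 a negative difference. At an unadjusted p under 0.05 there was 1, Mmp8, beside 8.01% of all genes below the receptor mark and 7.13% of all genes. A window was found for each of the 10, and 8 of them held the AP-1 letters TGANTCA once. Over all genes described here 12 of 56 windows, or 21.4%, held it, beside 6.75% of all windows in the table. Of those 12 windows 8 are the ones of this block, so the share over the set rests mostly on these neighbouring genes. The 8 matches are shown with 10 bases on each side, 5′ to 3′ on the gene's strand, with the match in capitals, because most genes of the block hold the motif and none of the 4 promoters above does. The TATA box letters, too, were in 7 of the 10 and in none of those 4, and over all genes described here they were in 13 of 56 windows, or 23.2%, beside 12.4% of all windows. The 7 of this block are among those 13.
Mmp13, chr9:7272469-7272495, plus strand: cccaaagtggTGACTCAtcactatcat
Mmp12, chr9:7347320-7347346, plus strand: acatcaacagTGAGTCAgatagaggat
Mmp1b, chr9:7388103-7388129, minus strand: ttacaaagccTGAGTCAtatagcctct
Mmp3, chr9:7445766-7445792, plus strand: gaagcaattaTGAGTCAgttttcgggt
Mmp1a, chr9:7464058-7464084, plus strand: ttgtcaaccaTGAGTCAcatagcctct
Mmp10, chr9:7502269-7502295, plus strand: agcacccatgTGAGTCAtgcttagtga
Mmp20, chr9:7628126-7628152, plus strand: atttgagacaTGAATCAtcacttacag
Mmp7, chr9:7692017-7692043, plus strand: agtgtgcaaaTGAGTCAcctatttcca
Each match started between 35 and 95 bases before the gene start. The 12 genes of the set with such a match had a median difference of 0.062, and 0 of them were at an unadjusted p under 0.05. The 39 genes with a window and no match had a median of 0.021, and 10 were at an unadjusted p under 0.05, or 25.6%. The share over all genes was 7.13%. Only 1 of the 12 lay above the receptor mark, against 26 of the 39, so the comparison is mostly one of dim with brighter genes.

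ADAMTS proteases that cut large proteoglycans such as versican and aggrecan (the hyalectanases) differed in both directions. Adamts9, a versicanase found in vessels and many other tissues, had 7.56, 7.27 and 7.25 in sham and 7.79, 7.88 and 7.92 in castrated samples. All castrated values lay above all sham values. The means were 7.36 ± 0.17 and 7.87 ± 0.068 (SD, n = 3 each), a 1.42-fold difference (log2 difference 0.50, standard error 0.11, 95% interval 0.24 to 0.76, limma adjusted p = 0.449). Adamts20, its closest relative, also a versicanase, had 5.08, 5.04 and 4.90 in sham and 5.23, 5.47 and 5.51 in castrated samples, again apart. It differed by 0.40 (standard error 0.11, 95% interval 0.15 to 0.65, limma adjusted p = 0.578).

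The other 5 hyalectanases had differences at or below 0. Adamts8 had 5.94, 5.70 and 5.69 in sham and 5.42, 5.55 and 5.54 in castrated samples, apart and lower, with a difference of −0.28 (standard error 0.11, limma adjusted p = 0.685). A second probe set of Adamts8 differed by 0.061 (standard error 0.16), so the direction of this gene is not settled. Adamts5, a major aggrecanase that also cuts versican in muscle, had 7.11, 7.04 and 7.00 in sham and 6.87, 6.97 and 6.76 in castrated samples. Its groups were apart, with a difference of −0.19 whose 95% interval ran from −0.41 to 0.042 (limma adjusted p = 0.758). Adamts4, the inducible aggrecanase, had 4.91, 5.33 and 5.15 in sham and 5.00, 4.71 and 4.92 in castrated samples. These overlapped, at a difference of −0.25 with a 95% interval from −0.55 to 0.053.

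Adamts15, a versicanase expressed in developing muscle, had 5.50, 5.59 and 5.61 in sham and 5.46, 5.44 and 5.55 in castrated samples. The groups overlapped, and the difference of −0.086 had a 95% interval from −0.30 to 0.13. Adamts1, which cuts versican and limits vessel growth, had 7.75, 7.69 and 7.37 in sham and 7.20, 7.74 and 7.88 in castrated samples. Castrated sample 1 was the lowest of the 6 arrays and castrated sample 3 the highest, and the difference of −0.00083 became 0.20 without castrated sample 1 and −0.14 without castrated sample 3. Its 95% interval of −0.42 to 0.41 leaves the direction undetermined. Adamts1 and Adamts5 are direct neighbours in the RefSeq table, as are Adamts15 and Adamts8.

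Adamts17, a protease tied to fibrillin microfibrils, had 5.06, 5.11 and 5.13 in sham and 5.58, 5.21 and 5.41 in castrated samples. The groups were apart at a difference of 0.30 (standard error 0.11, limma adjusted p = 0.682), which was 0.21 without castrated sample 1. The remaining 8 ADAMTS proteases outside the hyalectanases and procollagen enzymes had unadjusted p between 0.207 for Adamts16 and 0.999 for Adamts18. The procollagen N-proteinases Adamts3 and Adamts14, which trim collagen precursors, differed by 0.36 and 0.055 with overlapping groups. Of the 5 ADAMTS-like genes, which lack the protease domain and sit in microfibrils, 4 had a positive difference and the median was 0.11. Adamtsl2, which limits TGF-β availability, had 5.47, 5.50 and 5.40 in sham and 5.67, 5.54 and 5.71 in castrated samples. These were apart, at a difference of 0.19 (95% interval −0.035 to 0.41, limma adjusted p = 0.750).

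The widely expressed ADAM proteases gave no difference at an unadjusted p under 0.05. Adam10, the sheddase that starts Notch cleavage, had 7.91, 7.75 and 8.10 in sham and 7.87, 7.90 and 7.93 in castrated samples. The castrated values lay inside the sham range, and the difference of −0.018 had a 95% interval from −0.27 to 0.24. Adam17, which releases TNF and ligands of the EGF receptor, had 7.12, 7.17 and 7.33 in sham and 7.18, 7.16 and 6.95 in castrated samples. The groups overlapped, at a difference of −0.11 (95% interval −0.36 to 0.14). Adam12, expressed in regenerating muscle and in cells that form fat and connective tissue, had 4.71, 4.95 and 4.86 in sham and 5.12, 4.77 and 5.06 in castrated samples, and differed by 0.14 (95% interval −0.14 to 0.42). Adam12 was dim by the receptor mark, with a mean level of 4.91. Adam19, a sheddase of neuregulins, had 5.25, 4.86 and 4.79 in sham and 5.01, 4.78 and 5.01 in castrated samples, and differed by −0.035 (95% interval −0.35 to 0.28). With a sample left out the Adam19 value ran from −0.12 to 0.10. A second, dimmer probe set of Adam19 differed by −0.20. The probe set used had a mean level of 4.95, just above the receptor mark of 4.94. The 4 intervals together reach from −0.36 to 0.42 on the log2 scale and do not show that the genes were unaffected.

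Of the 9 widely expressed ADAMs 3 had a positive and 6 a negative difference, with a median of −0.020. Adam15, at −0.20, had a second probe set at 0.086. The 3 brain ADAMs without a working catalytic site, Adam11, Adam22 and Adam23, differed by −0.027, 0.096 and −0.12. Of the 21 ADAMs known from testis and other restricted sites 20 were dim by the receptor mark, and 13 had a positive difference. Adam24, a sperm protein gene, had 2.86, 3.17 and 3.17 in sham and 3.87, 3.34 and 3.36 in castrated samples, apart at a difference of 0.46 (limma adjusted p = 0.668). Without castrated sample 1 it was 0.28. Adam1b, another sperm protein gene, had 3.74, 3.87 and 3.88 in sham and 3.46, 3.51 and 3.71 in castrated samples, apart at −0.27 (limma adjusted p = 0.685). Adam24 lay at the 11.2th and Adam1b at the 15.5th percentile of mean level over all genes, where arrays measure little.

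Genes that activate these proteases or restrain them by other means had mostly negative differences. Of 22 measured genes 20 were negative, beside 11423 of 22180 over all genes. The median difference of the list was −0.072, with a range from −0.63 for Thbs1 to 0.11. At an unadjusted p under 0.05 there was 1, Plau, or 4.55%, beside 7.13% of all genes. None of the list passed over all genes. Centred on each gene's mean, the list medians were 0.16, 0.0018 and −0.030 in sham samples 1, 2 and 3. In castrated samples 1, 2 and 3 they were 0.033, −0.060 and −0.095, so the groups overlapped. Without sham sample 1 the differences of Pcsk6, Plaur, Reck, Thbs2 and Tspan14 were positive. Plau, the urokinase that activates plasminogen, had 8.35, 7.93 and 7.97 in sham and 7.82, 7.74 and 7.79 in castrated samples, apart at −0.30 (standard error 0.13, limma adjusted p = 0.696). Rhbdf2, the iRhom that carries ADAM17 to the cell surface, had 7.52, 7.57 and 7.30 in sham and 6.87, 7.24 and 7.33 in castrated samples. These overlapped, at −0.32 (standard error 0.14, limma adjusted p = 0.705). Thbs1, the thrombospondin that binds MMPs and activates TGF-β, had 8.34, 7.06 and 7.87 in sham and 7.61, 6.82 and 6.94 in castrated samples. Its samples were widely spread and overlapped, at −0.63 (standard error 0.31, 95% interval −1.34 to 0.081, limma adjusted p = 0.744), and it is named for the size of this difference after its values were seen.

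Matrix proteins that the enzymes cut had more positive differences. Of 21 measured genes 15 were positive, beside 10757 of 22180 over all genes, and the median difference of the list was 0.11. At an unadjusted p under 0.05 there were 6, or 28.6%, with 5 of them positive, beside 7.13% of all genes. The negative one was Vcan, which encodes versican, at −0.33 with overlapping groups (limma adjusted p = 0.687). The groups did not overlap for 3 of the 21, or 14.3%, beside 12.8% of all genes. Castrated samples lay above sham for Col14a1, and below for Tnxb and for Acan, which was dim by the receptor mark. None of the list passed over all genes. Col14a1, a fibril-associated collagen, had 5.57, 5.41 and 5.28 in sham and 5.93, 5.99 and 5.81 in castrated samples, apart at 0.49 (standard error 0.11, limma adjusted p = 0.449). Col1a1, a chain of the main fibrillar collagen, had 9.23, 8.71 and 8.25 in sham and 10.12, 9.75 and 8.94 in castrated samples. These overlapped, at 0.87 (standard error 0.31, limma adjusted p = 0.668). Of 11 tendon markers, several of them in the same list, 10 had a positive difference with a median of 0.48, and their summed linear level overlapped between sham (1849 to 3420) and castrated samples (2929 to 3724). The part of tendon in the matrix values was not tested.

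Membrane proteins that ADAMs shed, with their receptors, were balanced. Of 23 measured genes 11 were positive and 12 negative, with a median of −0.0058. At an unadjusted p under 0.05 there was 1, or 4.35%, beside 7.13% of all genes. That gene was Tnfrsf1a, a TNF receptor that ADAM17 sheds, with 7.73, 7.69 and 7.89 in sham and 7.53, 7.53 and 7.49 in castrated samples, apart at −0.25 (standard error 0.098, limma adjusted p = 0.685). Igfbp3, an IGF-binding protein that several of these proteases can cut, differed by 0.23 (standard error 0.11, limma adjusted p = 0.712).

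**Figure D5:**
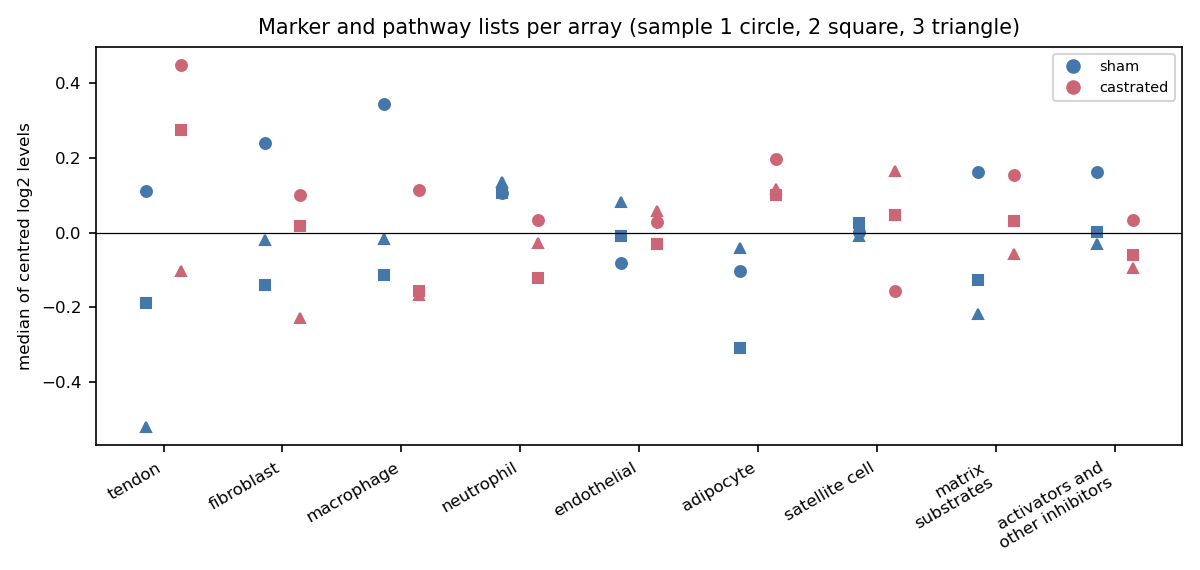
Median over each list of log2 levels, each gene centred over the 6 arrays (y axis), in each sham (blue) and castrated (red) sample for 7 cell type marker lists and 2 pathway lists. Adipocyte medians lie higher and neutrophil medians lower in all castrated samples than in all sham samples, whereas tendon, fibroblast, macrophage and matrix medians overlap, with sham sample 1 high in the last 3.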

How the data were processed

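Total RNA from about 25 mg of tissue was treated with DNase on the column, and 300 ng of it was labelled with biotin for whole-transcript arrays, per the labels' protocols. The values deposited by the authors are log2 expression values per probe set, read as base 2 from their range. The submitters' processing notes name Partek. How background was corrected, probes summarized and arrays normalized is not given in the sources used here, and normalizing arrays to each other can shrink differences of very dim and very bright genes.

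Of 41345 probe sets 23521 carry 1 gene symbol, 1814 several and 16010 none. Symbols were updated through Entrez identifiers (23328 matched, GRCm38.p6), and each gene was represented by its probe set with the highest mean (22180 genes; 6 of the 82 genes described here had more than 1). The test over all genes used limma 3.58.1 under R 4.3.3 (lmFit, eBayes, no covariate), with p-values adjusted by Benjamini-Hochberg at 0.05; the procedure was tested on simulated data. Arrays have no read depth, and their number limits the precision.

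The genes, lists, named genes and tests were chosen with earlier results of these data known. Named with every value were a set of 18 genes whatever their values, of which 16 were measured, and the 12 genes at an unadjusted p under 0.05 (at most 15), 24 in all, plus the 2 genes of smallest p in each pathway list. Other genes named were chosen after their values were seen or to complete a group. Alternatives were quantile normalization, array-median centring, leaving out genes under the 25th or the 50th percentile of level, other probe set rules, the replicate number as a block, other variance priors, array weights and leaving out each sample.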

Additional observations from a re-analysis of the deposited data

How the results depend on the processing

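No alternative brought any of the 82 genes past the threshold; the smallest adjusted p of a named gene was that of Timp4, at 0.0732 with a trended robust variance prior, 0.0747 without genes under the 50th percentile of level and 0.770 without variance moderation. The count at an unadjusted p under 0.05, 12 as reported, was 7 with the 50th percentile filter, 11 with the replicate number as a block, and from 7 (without castrated sample 3) to 11 with a sample left out. With the filter the count is out of fewer than 82 genes. Same-numbered samples deviated from their group means at correlations of 0.0325 to 0.0759, so the numbers were not taken as pairs; the replicate block left 2 of the 3 genes called over the whole table. That count of 3 was 9 and 16 with the 25th and 50th percentile filters, 10 with the trended robust prior, 0 without moderation, and 3 to 4 with a sample left out. The median difference of the 82 genes, 0.025, was −0.013 after centring on array medians and ran from −0.013 without sham sample 3 to 0.064 without sham sample 1, so it has no settled sign. The 12 genes at an unadjusted p under 0.05 kept the direction of their difference under each alternative in which they were tested, apart from the second probe set of Adamts8. Of the 24 named genes 5 changed sign. Mmp2 was −0.027 after centring, −0.031 with array weights and −0.17 to 0.21 with a sample left out. Adam10 was 0.021 after quantile normalization, 0.0063 with array weights and −0.10 to 0.072 with a sample left out. Adamts1 was 0.036, 0.020 and −0.14 to 0.20 in the same order. Adam19 ran from −0.12 to 0.10 and Timp2 from −0.020 to 0.23 with a sample left out. With 3 arrays per group, the standard errors of the named genes ran from 0.0945 for Adamts15 to 0.183 for Adamts1.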
